A study of Mus musculus with 4 samples.

Results

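Glycolysis splits glucose into pyruvate, and the pentose phosphate pathway draws on the same glucose 6-phosphate to make NADPH and ribose. A set of 32 gene names for these pathways was followed in LSK cells (Lin-Sca-1+c-Kit+), the fraction of the mouse fetal liver that holds its hematopoietic stem and progenitor cells. The names were given by a fixed list of glucose transporters, glycolytic enzymes, lactate and pyruvate switches and pentose phosphate enzymes, and they matched 33 of the 39186 gene rows of the deposited table, since *Aldoa* is listed under 2 Ensembl identifiers. RNA sequencing covered 2 *Pich*-KO and 2 *Pich*-WT samples of C57BL/6 fetal liver, sorted as LSK cells by flow cytometry. *Pich*-KO carries a constitutive TALEN deletion of 10 bases in exon 2 of the X-linked gene for the DNA translocase PICH, in every cell of the embryo, and *Pich*-WT is the wild type. Fetal livers were taken at embryonic day E14.5 per the study's methods, and the labels give no age, sex or number of embryos pooled for the sequenced samples. Nothing in the labels says that the samples of a group came from separate litters, so the p-values below apply to these samples only. The p-values and standard errors of single genes also borrow from the spread of other genes, and are not measures of that gene's spread alone.

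Glucose enters through transporters of the Slc2a family and is trapped by hexokinases. It then passes through isomerase, phosphofructokinase, aldolase and the triose enzymes to pyruvate, which lactate dehydrogenase turns into lactate or pyruvate dehydrogenase passes on to mitochondria. Several steps have isozymes that differ between tissues. Quiescent blood stem cells are known to lean on glycolysis and to hold pyruvate back from mitochondria through pyruvate dehydrogenase kinases.

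Values are normalized counts, the reads on a gene divided by a size factor per sample, and depth was 14703215 to 20933919 reads on genes. A log2 fold change is *Pich*-KO minus *Pich*-WT on log2(normalized count + 1), and a gene is called when limma gives it an adjusted p under 0.05, by the Benjamini-Hochberg method over 32428 genes. *Ercc6l*, the gene for PICH, had normalized counts of 1142 and 1232 in *Pich*-KO against 772 and 661 in *Pich*-WT. The deletion takes out a few bases of the transcript only, so this mRNA does not check the genotype labels. Markers of other cell types differed between the groups. The summed level of 12 macrophage markers was 556 and 482 CPM (reads scaled to a common library total) in *Pich*-KO against 3836 and 4174 CPM in *Pich*-WT, with 12 of 12 called lower. The 10 erythroid markers summed to 2010 and 2155 against 12175 and 9030 CPM with 9 called lower, and the 8 endothelial markers to 309 and 218 against 2038 and 1506 CPM with 8 called lower. The 10 hepatocyte markers summed to 197 and 163 against 326 and 307 CPM with 7 called lower. The 10 neutrophil and granulocyte progenitor markers summed to 3997 and 7364 against 1122 and 1339 CPM, with 3 called higher. The sums were also taken for 8 megakaryocyte markers (76.1 and 77.3 against 317 and 203 CPM, 3 called lower), 7 mast cell and basophil markers (155 and 179 against 123 and 153 CPM, 3 called higher and 1 lower) and 10 lymphoid markers (128 and 157 against 162 and 159 CPM, 1 called higher and 1 lower). The 10 LSK markers summed to 1707 and 1020 against 1522 and 1707 CPM, with 1 called higher and 4 lower. Of the genes of the gate, *Ly6a* (Sca-1) had 3586 and 2978 against 901 and 1061 normalized counts and was the one called higher, and *Kit* had 4447 and 2773 against 2328 and 2513. The 4 called lower were *Procr* (log2 fold change -2.88), *Hlf* (-2.37), *Mecom* (-2.10) and *Slamf1* (-0.90), and in 7 of the 10 both *Pich*-KO samples lay below both *Pich*-WT samples. Of all genes tested, 7.58% were called higher and 9.60% lower, and 27.2% lay below in this way. *Pich*-WT sample 2 stood apart in sex, with 0 reads on Y-linked genes and 699 on *Xist*, where the other samples had 1607 to 2848 and 4 to 13. The part of these differences in the values below was not tested, and fewer cells of a type cannot be told apart from less RNA per cell.

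Most of the chain from glucose 6-phosphate to lactate was higher in *Pich*-KO LSK cells. Of the 33 rows, 17 were called higher and 5 lower, and 11 were not called. All 33 had a mean above the filter of 1 normalized count. Over all genes tested, 7.58% were called higher and 9.60% lower. The members are highly counted, and highly counted genes were called more often: among genes with a mean of at least 1000 the shares were 31.3% higher and 18.8% lower, against 16 higher and 2 lower of the 24 members at that level. The median log2 fold change of the members was 0.41, beside 0.02 over all genes. For the 24 members with a mean of at least 1000 it was 0.66, beside 0.14 for all such genes. In 19 rows both *Pich*-KO values lay above both *Pich*-WT values, in 9 rows both lay below, and in 5 rows the groups overlapped. Such separation was found in 28.9% of all genes in the higher and 27.2% in the lower direction. Of the 22 called members, 19 were called in each of 7 other fits with all samples, and *Gapdh*, *Pklr* and *Slc16a1* were not. Of the 11 uncalled, *Aldoc*, *Pdk1* and *Taldo1* were called in 4 of the 7 and *Pfkfb4* in 1. Without the variance trend over the level of expression, limma called 0 of the 33 members and 0 of all genes, with 16 members and 7377 genes at an unadjusted p under 0.05. On the recovered reads edgeR called 18 members higher and 7 lower.

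**Figure D1:**
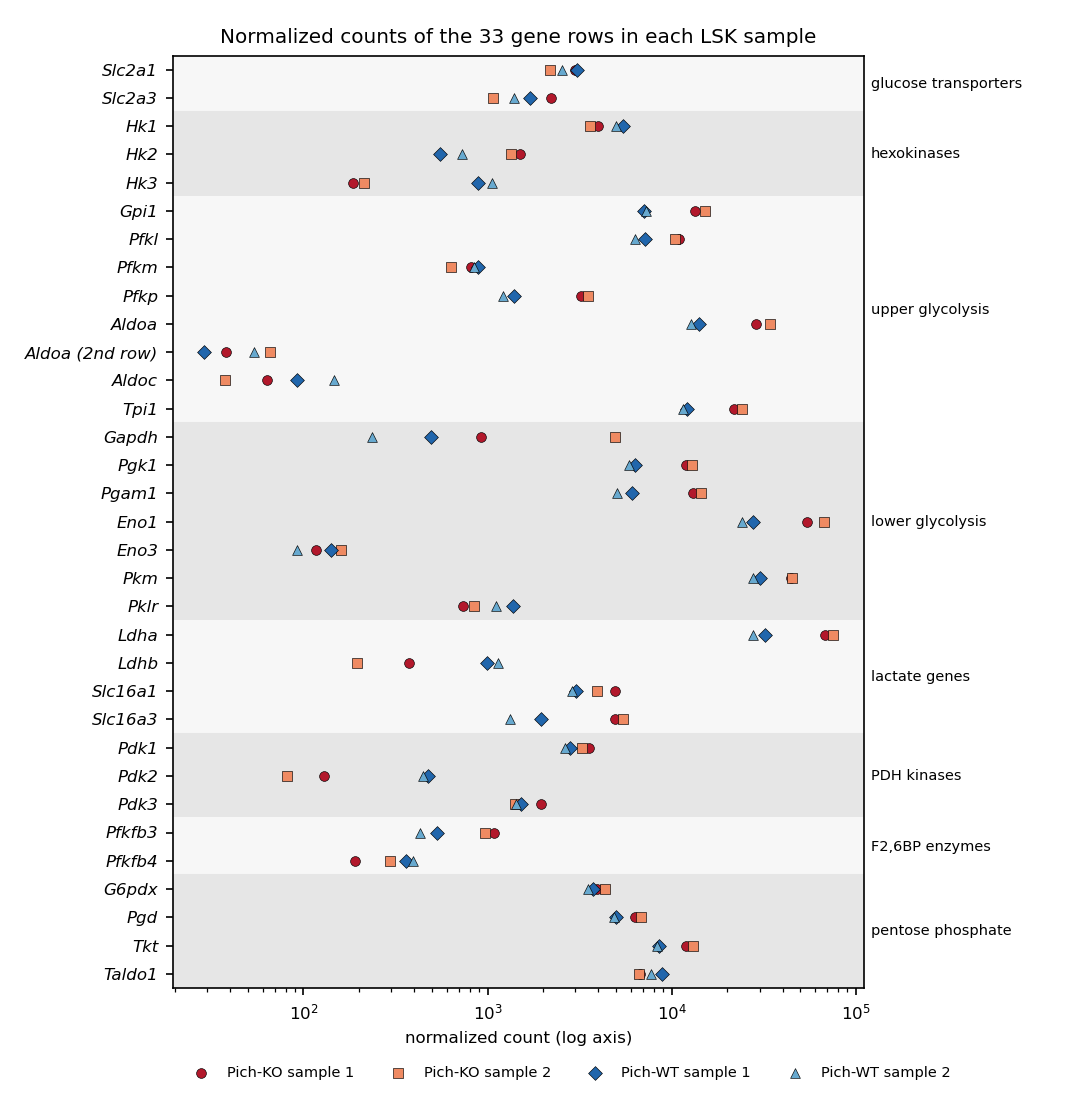
Normalized counts (log axis) of the 33 gene rows in each of the 4 LSK samples, grouped by role, with circles and squares for *Pich*-KO and diamonds and triangles for *Pich*-WT. *Ldha*, *Eno1*, *Aldoa* and *Pkm* lie furthest right, with both *Pich*-KO samples above both *Pich*-WT samples, while *Hk3*, *Ldhb* and *Pdk2* lie lower in *Pich*-KO.

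Together the members took 1.99% and 2.17% of the reads on genes in the *Pich*-KO samples. The shares were 1.20% and 1.14% in the *Pich*-WT samples. The 95% Wilson intervals were 1.98% to 1.99%, 2.16% to 2.18%, 1.20% to 1.20% and 1.13% to 1.14%, and they cover counting error only. The group means were 2.08% ± 0.130 and 1.17% ± 0.0439 (SD, n = 2), a ratio of 1.78. With 2 samples a group an exact permutation test cannot give a two-sided p below 0.333, and the shares are given as a description. The 4 pentose phosphate enzymes took 0.179% ± 0.00654 and 0.158% ± 0.00149 (SD, n = 2), a ratio of 1.14.

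The promoters of some members that moved are shown because the hypoxia-inducible factor HIF-1 is known to drive many glycolytic genes through short sites in them. RefSeq promoters on GRCm38.p6, from 250 bases before to 50 after a start site, were found for 31 of the 32 names, with *Slc2a3* unmatched. Where a gene had several, the promoter nearest to the gene start in the deposited table was taken. *Ldha*, *Eno1* and *Pgk1*, called higher, and *Ldhb* and *Hk3*, called lower, were chosen after their values were seen. Their promoters lie at chr7:46845554-46845853 (plus strand), chr4:150236458-150236757 (plus), chrX:106186850-106187149 (plus), chr6:142507908-142508207 (minus) and chr13:55021336-55021635 (minus). The nearest *Ldha* start site lies 4329 bases from the gene start in the table. Each promoter is written 5′ to 3′ on the strand of its gene, and capitals mark ACGTG or GCGTG on either strand, the core of the hypoxia response element.
Ldha: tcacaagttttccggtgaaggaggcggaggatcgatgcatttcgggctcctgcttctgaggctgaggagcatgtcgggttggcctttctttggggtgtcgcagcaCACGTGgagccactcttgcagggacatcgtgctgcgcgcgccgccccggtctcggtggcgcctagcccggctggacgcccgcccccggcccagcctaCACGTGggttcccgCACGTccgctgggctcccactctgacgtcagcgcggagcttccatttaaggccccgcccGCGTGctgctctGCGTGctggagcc
Eno1: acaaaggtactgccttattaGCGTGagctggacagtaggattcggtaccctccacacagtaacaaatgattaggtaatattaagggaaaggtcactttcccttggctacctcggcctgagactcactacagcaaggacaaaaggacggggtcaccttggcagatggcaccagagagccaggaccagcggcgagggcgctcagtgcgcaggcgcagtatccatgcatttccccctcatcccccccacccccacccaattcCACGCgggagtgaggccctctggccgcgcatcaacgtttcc
Pgk1: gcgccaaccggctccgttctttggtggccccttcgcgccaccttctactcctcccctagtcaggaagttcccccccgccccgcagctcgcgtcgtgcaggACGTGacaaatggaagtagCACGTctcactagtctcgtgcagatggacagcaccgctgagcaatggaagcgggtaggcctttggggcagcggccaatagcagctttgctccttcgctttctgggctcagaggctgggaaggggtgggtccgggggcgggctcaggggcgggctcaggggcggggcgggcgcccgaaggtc
Ldhb: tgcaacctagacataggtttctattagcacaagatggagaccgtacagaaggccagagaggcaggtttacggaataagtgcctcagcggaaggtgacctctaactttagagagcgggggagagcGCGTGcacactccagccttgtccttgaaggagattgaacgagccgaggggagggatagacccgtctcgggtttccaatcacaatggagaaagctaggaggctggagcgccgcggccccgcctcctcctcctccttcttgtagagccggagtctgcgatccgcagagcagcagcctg
Hk3: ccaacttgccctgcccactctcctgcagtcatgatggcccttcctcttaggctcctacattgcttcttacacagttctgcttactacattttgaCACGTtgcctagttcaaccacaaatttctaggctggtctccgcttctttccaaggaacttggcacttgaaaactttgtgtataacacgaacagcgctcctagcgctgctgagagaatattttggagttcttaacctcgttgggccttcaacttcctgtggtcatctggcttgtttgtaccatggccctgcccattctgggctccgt
The *Ldha* promoter held 5 matches to ACGTG and 2 to GCGTG. Each CACGTG, the E-box, counts as 2 of the ACGTG matches, since it reads the same on both strands, and *Ldha* had 2 of them. *Pgk1* had 2 matches to ACGTG, *Eno1* had 2 to GCGTG, *Ldhb* had 1 to GCGTG and *Hk3* had 1 to ACGTG. Either core stood in 13 of 17 promoters of members called higher (76.5%), in 3 of 5 called lower and in 9 of 9 not called, against 43.8% of all 32851 promoters. The cores hold a CG, and the members' promoters were also richer in G and C, with a median of 60.7% against 52.7% over all promoters. CACGTG was found in 4 of the 31 promoters (12.9%), against 7.15% of all.

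**Figure D2:**
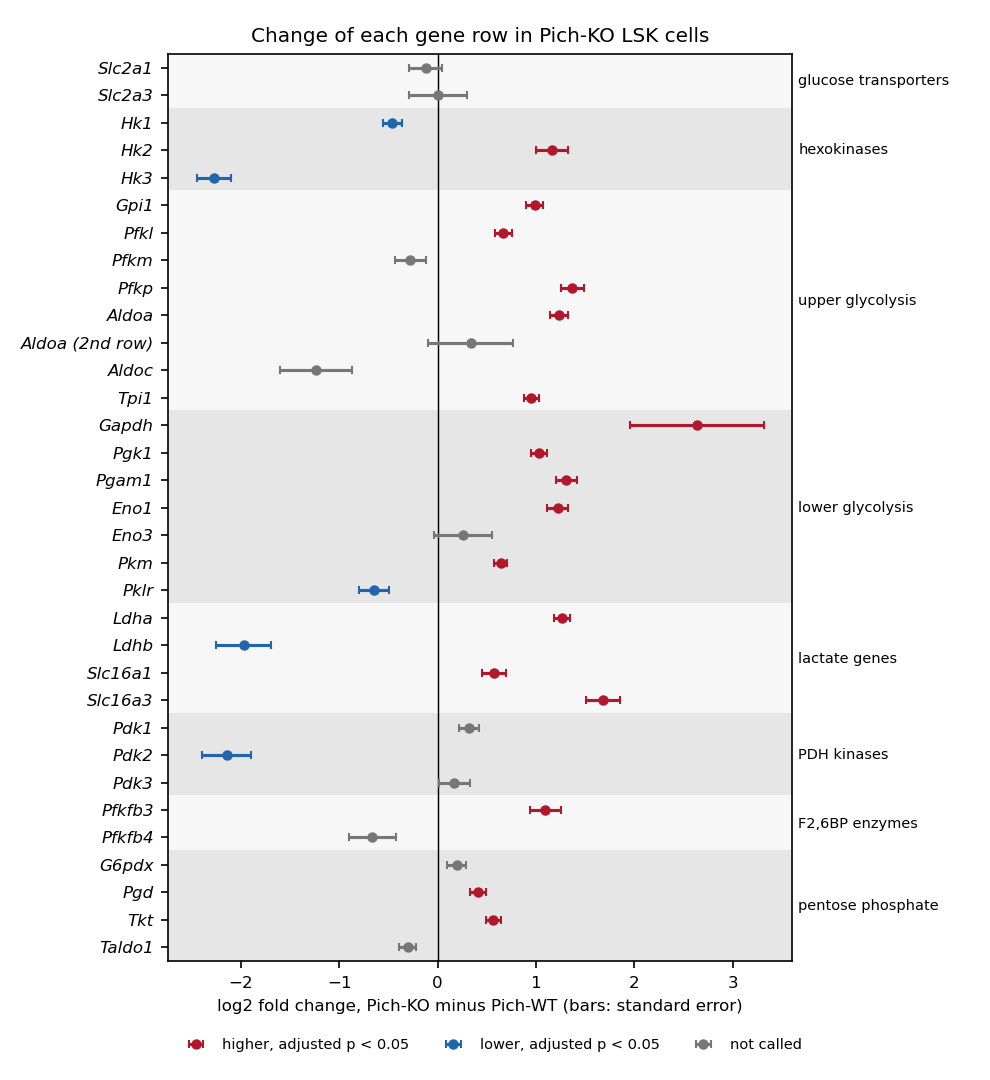
Log2 fold change of each gene row, *Pich*-KO minus *Pich*-WT, with its standard error, in the order of the pathway. Red marks an adjusted p under 0.05 with a higher level in *Pich*-KO (17 rows), blue a lower level (5 rows), and grey the 11 rows not called.

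Neither glucose transporter was called. *Slc2a1*, the widely expressed glucose transporter GLUT1, had normalized counts of 2995 and 2186 in *Pich*-KO against 3075 and 2521 in *Pich*-WT. *Slc2a3*, the high-affinity transporter GLUT3, had 2208 and 1075 against 1695 and 1387. In both genes the groups overlapped, and *Pich*-KO sample 2 was the lowest of the 4 samples. The log2 fold changes were -0.12 (SE 0.17, adjusted p = 0.704, limma) and 0.01 (SE 0.29, adjusted p = 0.990). Per kilobase, GLUT1 was the main form in every sample, with 73.7% to 80.8% of the pair.

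The hexokinases, which phosphorylate glucose on entry, moved in opposite directions. *Hk2* (chr6:82725025-82774454), the inducible form, had normalized counts of 1495 and 1338 in *Pich*-KO against 552 and 724 in *Pich*-WT. *Hk3* (chr13:55005985-55021385), a form of myeloid cells, had 185 and 214 against 887 and 1057. *Hk1* (chr10:62268855-62379908), the common form, had 3985 and 3592 against 5461 and 4955. The groups did not overlap in any of these genes. *Hk2* rose, with a log2 fold change of 1.16 (SE 0.16, adjusted p = 0.00214, limma). *Hk3* fell by 2.28 (SE 0.17, adjusted p = 0.000136) and *Hk1* by 0.46 (SE 0.10, adjusted p = 0.0151) on the log2 scale. *Hk1* was not called by edgeR without *Pich*-WT sample 1 (adjusted p = 0.116). *Hk3* was low in the same samples as the macrophage markers, whose mean sum was 519 CPM in *Pich*-KO and 4005 CPM in *Pich*-WT. The sum of the 10 neutrophil and granulocyte progenitor markers, also myeloid, went the other way, with 5680 CPM in *Pich*-KO and 1231 CPM in *Pich*-WT. Most of that sum was *Mpo*, and *Mpo*, *Prtn3* and *Ctsg* were the 3 called higher. In the other 7 the groups overlapped, and the log2 fold change was negative in *S100a9*, *Ngp*, *Ltf* and *Camp*. The part of these cells in *Hk3* was not tested. *Hk3* also overlaps *Unc5a* on the other strand, which had 18.3% of its normalized counts, and the library kit does not keep the strand.

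As shares of the 3 hexokinases per kilobase, *Hk2* made up 32.6% and 31.9% in *Pich*-KO against 9.50% and 12.3% in *Pich*-WT. *Hk3* made up 6.56% and 8.25% against 24.7% and 29.0%. *Hk1* stayed the main form, with 60.8% and 59.9% against 65.8% and 58.7%. The shares of *Hk2* and *Hk3* did not overlap between the groups (exact permutation p = 0.333, two-sided, the smallest possible here), and those of *Hk1* did.

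In upper glycolysis, 5 of the 8 rows rose and the other 3 were not called. *Gpi1*, glucose-6-phosphate isomerase, had normalized counts of 13302 and 15247 in *Pich*-KO against 7097 and 7272 in *Pich*-WT (log2 fold change 0.99, SE 0.09, adjusted p = 0.000244). *Aldoa* (chr7:126795234-126800751), the main aldolase, had 28775 and 34248 against 14047 and 12658, a log2 fold change of 1.24 (SE 0.09, adjusted p = 0.000144). *Tpi1*, triose-phosphate isomerase, had 21705 and 24035 against 12078 and 11488, a change of 0.96 (SE 0.07, adjusted p = 0.000158). The *Pich*-KO means were 1.99, 2.36 and 1.94 times the *Pich*-WT means, and no *Pich*-KO sample lay inside the range of *Pich*-WT.

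Phosphofructokinase commits sugar to glycolysis and has liver, muscle and platelet forms. *Pfkl*, the liver form, had 10974 and 10424 normalized counts in *Pich*-KO against 7134 and 6340 in *Pich*-WT, and rose by a log2 fold change of 0.67 (SE 0.09, adjusted p = 0.00141). *Pfkp*, the platelet form, had 3209 and 3515 against 1393 and 1212, and rose by 1.37 (SE 0.12, adjusted p = 0.000232). *Pfkm*, the muscle form, had 816 and 631 against 891 and 847, a log2 fold change of -0.28 (SE 0.16, adjusted p = 0.318). *Pfkm* overlaps *Senp1* and *Pfkp* overlaps *Pitrm1*, each on the other strand, and these neighbours had 196% and 91.7% of the counts of the member, so both values are uncertain. Per kilobase, *Pfkl* made up 77.4% ± 0.226 of the family in *Pich*-KO and 73.8% ± 0.591 in *Pich*-WT (SD, n = 2). Without division by length its share was lower in *Pich*-KO, 72.4% against 75.6%, as the merged exons of *Pfkp* come to 13401 bases and those of *Pfkl* to 6675. Per kilobase, *Pfkm* had mean shares of 10.4% in *Pich*-KO and 19.1% in *Pich*-WT, and *Pfkp* of 12.1% and 7.11%.

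The minor aldolase rows were not called. *Aldoc*, the brain form, had 63.3 and 37.5 normalized counts in *Pich*-KO against 92.2 and 147 in *Pich*-WT (log2 fold change -1.24, SE 0.36, adjusted p = 0.0546). The second *Aldoa* row (ENSMUSG00000114515, chr7:126800790-126809108), upstream of the main gene, had 38.2 and 65.9 against 28.9 and 54.0, and the groups overlapped (log2 fold change 0.34, SE 0.43, adjusted p = 0.682).

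Lower glycolysis, from glyceraldehyde 3-phosphate to pyruvate, had 5 of 7 rows called higher and *Pklr* called lower. *Pgk1*, phosphoglycerate kinase, had normalized counts of 11931 and 12912 in *Pich*-KO against 6297 and 5841 in *Pich*-WT (log2 fold change 1.03, SE 0.08, adjusted p = 0.000168). *Pgam1*, phosphoglycerate mutase, had 13084 and 14349 against 6068 and 5022, a change of 1.31 (SE 0.11, adjusted p = 0.000172). In both, each *Pich*-KO sample lay above each *Pich*-WT sample. *Eno1* (chr4:150236721-150248879), the main enolase, had 54099 and 66718 against 27666 and 23967, a change of 1.22 (SE 0.11, adjusted p = 0.000242). *Pkm*, the pyruvate kinase of most tissues, had 44643 and 45211 against 30204 and 27473, a smaller change of 0.64 (SE 0.06, adjusted p = 0.000415). In all 4 genes the *Pich*-KO samples differed by less than their distance from *Pich*-WT. Since the counts are per gene, the M1 and M2 forms of *Pkm* cannot be told apart.

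*Pklr*, the pyruvate kinase of liver and red cells, went the other way. It had 737 and 843 normalized counts in *Pich*-KO against 1368 and 1109 in *Pich*-WT, and fell by 0.64 on the log2 scale (SE 0.15, adjusted p = 0.0230, limma). The call was lost without the filter on the mean (adjusted p = 0.0593) and, by edgeR, without *Pich*-WT sample 1 (adjusted p = 0.128). *Pklr* moved with the erythroid markers, whose mean sum was 2082 CPM in *Pich*-KO and 10603 CPM in *Pich*-WT, and with the hepatocyte markers, 180 against 316 CPM, and their part in it was not tested. As a share of pyruvate kinase per kilobase, *Pklr* was 2.49% and 2.80% in *Pich*-KO against 6.54% and 5.87% in *Pich*-WT. *Eno3*, the muscle enolase, had 117 and 160 against 141 and 92, and the groups overlapped (adjusted p = 0.629).

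*Gapdh* (chr6:125161715-125166467), the dehydrogenase between the triose and phosphoglycerate steps, had the largest standard error of the members. Its normalized counts were 917 and 4910 in *Pich*-KO against 493 and 235 in *Pich*-WT. Both *Pich*-KO samples were above both *Pich*-WT samples, but most of the difference came from *Pich*-KO sample 2. The log2 fold change was 2.64 (SE 0.68, adjusted p = 0.0327, limma), and it was 1.43 without *Pich*-KO sample 2 and 3.85 without sample 1. The call was lost with a pseudocount of 0.1 (adjusted p = 0.0877) and without the filter on the mean (adjusted p = 0.1203). *Gapdh* was low beside its neighbours in the chain: per kilobase its mean was 705 in *Pich*-KO and 88.1 in *Pich*-WT, against 8307 and 4280 for *Tpi1* and 5536 and 2704 for *Pgk1*. *Gapdh* is known for many processed pseudogenes, and how the authors counted reads that match several copies is not given in the sources used here, so its value is uncertain. The listed copy *Gapdh-ps14* had at most 5.45 normalized counts in any sample, and copies of *Gapdh* under other names were not examined. *Gapdh* also overlaps *Iffo1* on the other strand, which had 27.8% of its counts.

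**Figure D3:**
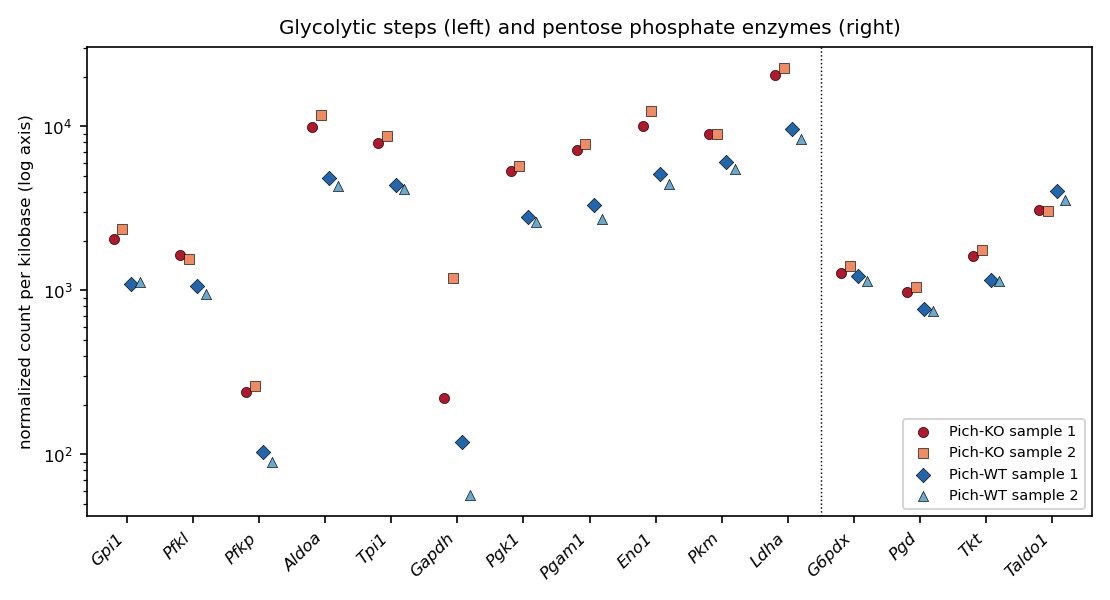
Normalized count per kilobase of merged exons (log axis) in each sample, for the glycolytic steps from *Gpi1* to *Ldha* and for 4 pentose phosphate enzymes. *Gapdh* lies far below *Tpi1* and *Pgk1*, its neighbours in the chain, and its *Pich*-KO samples are 222 and 1188 per kilobase, while *Ldha* has the highest level in each sample.

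*Ldha* was the most highly counted member. It (chr7:46841475-46855627) encodes the subunit of lactate dehydrogenase that favours lactate. Its normalized counts were 67933 and 74734 in *Pich*-KO against 31980 and 27611 in *Pich*-WT. It rose by a log2 fold change of 1.26 (SE 0.08, adjusted p = 7.29e-05), the smallest adjusted p among the members. *Ldhb* (chr6:142490249-142507957), the subunit of heart and red cells, had 374 and 196 against 989 and 1145, and fell by 1.97 on the log2 scale (SE 0.28, adjusted p = 0.00230). The 2 subunits of one enzyme thus moved in opposite directions, and no sample of either group lay in the range of the other. *Ldhb* was 1.15% and 0.549% of the pair per kilobase in *Pich*-KO against 6.12% and 8.04% in *Pich*-WT.

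The 2 lactate transporters rose with *Ldha*. *Slc16a3*, the exporter MCT4, had 4905 and 5442 normalized counts in *Pich*-KO against 1947 and 1327 in *Pich*-WT (log2 fold change 1.68, SE 0.17, adjusted p = 0.000486). *Slc16a1*, the transporter MCT1, had 4933 and 3924 against 3029 and 2884, a change of 0.57 (SE 0.12, adjusted p = 0.0147), and it missed the threshold without the filter on the mean (adjusted p = 0.0516). MCT4 made up 45.3% and 53.6% of the pair per kilobase in *Pich*-KO against 34.8% and 27.7% in *Pich*-WT.

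Copies were found by a member's name followed by -ps or -rs, with *Eno1b* added, and copies under other names were not searched. Among those found, the 4 most counted copies of the abundant enzymes shared the direction of their genes. *Eno1b* on chromosome 18 had 3.68% to 4.26% of the counts of *Eno1* in the 4 samples, *Pgk1-rs7* had 0.805% to 1.18% of *Pgk1*, *Pgam1-ps2* 0.657% to 1.00% of *Pgam1* and *Ldha-ps2* 0.551% to 0.623% of *Ldha*. All 4 were called higher. The other listed copies were not called or fell below the filter on the mean. *Pgam1-ps1*, the most counted of those, had at most 12.0 normalized counts in any sample. Since reads may be split between a gene and its copy, the copies are not independent measurements.

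The pyruvate dehydrogenase kinases, which switch off the entry of pyruvate into mitochondria, differed among themselves. *Pdk2* (chr11:95026258-95041354), a widely expressed form, had 129 and 81.8 normalized counts in *Pich*-KO against 472 and 444 in *Pich*-WT. It fell by 2.15 on the log2 scale (SE 0.25, adjusted p = 0.000892). *Pdk1*, a known HIF-1 target, had 3570 and 3240 against 2806 and 2643, a log2 fold change of 0.32 (SE 0.10, adjusted p = 0.0694). *Pdk3* had 1938 and 1414 against 1511 and 1430, and the groups overlapped (adjusted p = 0.548). Per kilobase, *Pdk3* was the most abundant of the 3 in every sample, and *Pdk2* was 3.24% and 2.60% of the family in *Pich*-KO against 13.6% and 13.5% in *Pich*-WT.

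The bifunctional enzymes that set fructose 2,6-bisphosphate, the activator of phosphofructokinase, also split. *Pfkfb3*, the form with high kinase activity, had 1082 and 966 normalized counts in *Pich*-KO against 531 and 429 in *Pich*-WT, and rose by a log2 fold change of 1.10 (SE 0.16, adjusted p = 0.00258). *Pfkfb4* had 190 and 297 against 360 and 394, a change of -0.66 (SE 0.24, adjusted p = 0.104). *Pfkfb3* made up 78.6% and 67.7% of the pair per kilobase in *Pich*-KO against 48.7% and 41.2% in *Pich*-WT.

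**Figure D4:**
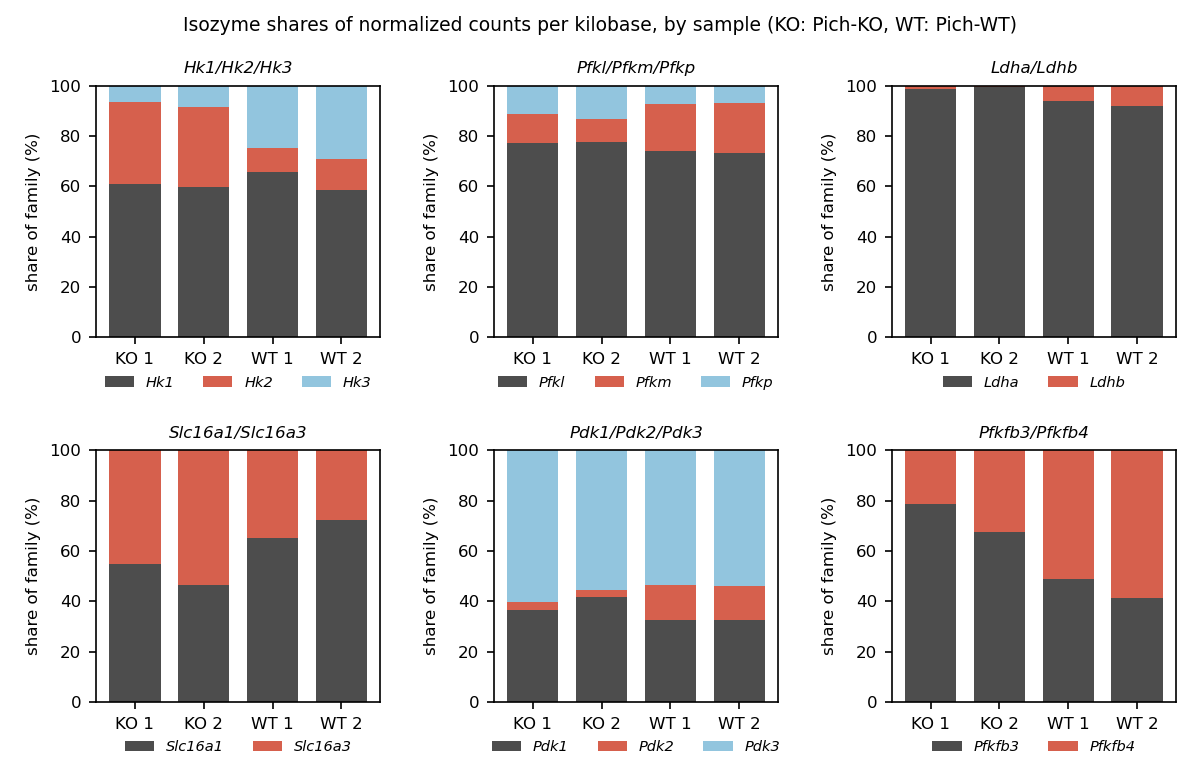
Share of each isozyme in its family, in percent of the normalized counts per kilobase, for 6 families in the 4 samples. *Hk2* and *Hk3* change places between the *Pich*-KO and *Pich*-WT samples, *Ldhb* and *Pdk2* take smaller shares in *Pich*-KO, and *Slc16a3* and *Pfkfb3* take larger ones.

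Over 10 isozyme families with 23 shares, 20 shares per kilobase did not overlap between the groups. The 3 that overlapped were *Slc2a1*, *Slc2a3* and *Hk1*. For the level of a single gene, a different measure, 28.9% of all genes stood apart in the higher and 27.2% in the lower direction. Without division by length the shares of *Hk1* stood apart (70.3% and 69.8% against 79.1% and 73.6%) and those of *Pdk3* overlapped (34.4% and 29.9% against 31.5% and 31.7%). Shares within a family are tied to each other, and in a family of 2 genes one share fixes the other, so the 20 are not separate results. Each of the 20 has an exact permutation p of 0.333, the lowest that 2 against 2 samples allow.

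The log2 fold changes of the 4 pentose phosphate enzymes ran from -0.30 to 0.57. *G6pdx*, the rate-limiting dehydrogenase on the X chromosome, had normalized counts of 3939 and 4357 in *Pich*-KO against 3757 and 3494 in *Pich*-WT (log2 fold change 0.19, SE 0.10, adjusted p = 0.247). *Pgd*, the second dehydrogenase, had 6326 and 6795 against 4995 and 4855, and rose by 0.41 (SE 0.08, adjusted p = 0.0119). *Tkt*, transketolase, had 11963 and 12992 against 8479 and 8362, and rose by 0.57 (SE 0.08, adjusted p = 0.00168). *Taldo1*, transaldolase, had 6755 and 6628 against 8804 and 7737, a change of -0.30 (SE 0.09, adjusted p = 0.0533). The groups stood apart in all 4 genes, in the higher direction in 3 of them and in the lower direction in *Taldo1*. Such separation was common, with 28.9% of all genes in the higher and 27.2% in the lower direction. *Pgd* lost its call by edgeR without *Pich*-WT sample 1 (adjusted p = 0.0610) or sample 2 (adjusted p = 0.0697). *G6pdx* overlaps *Ikbkg* on the other strand, which had 20.9% of its counts. *G6pdx*, *Pgk1* and *Pdk3* are X-linked, and without *Pich*-WT sample 2, the sample with *Xist*, their log2 fold changes were 0.14, 0.98 and 0.13.

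**Figure D5:**
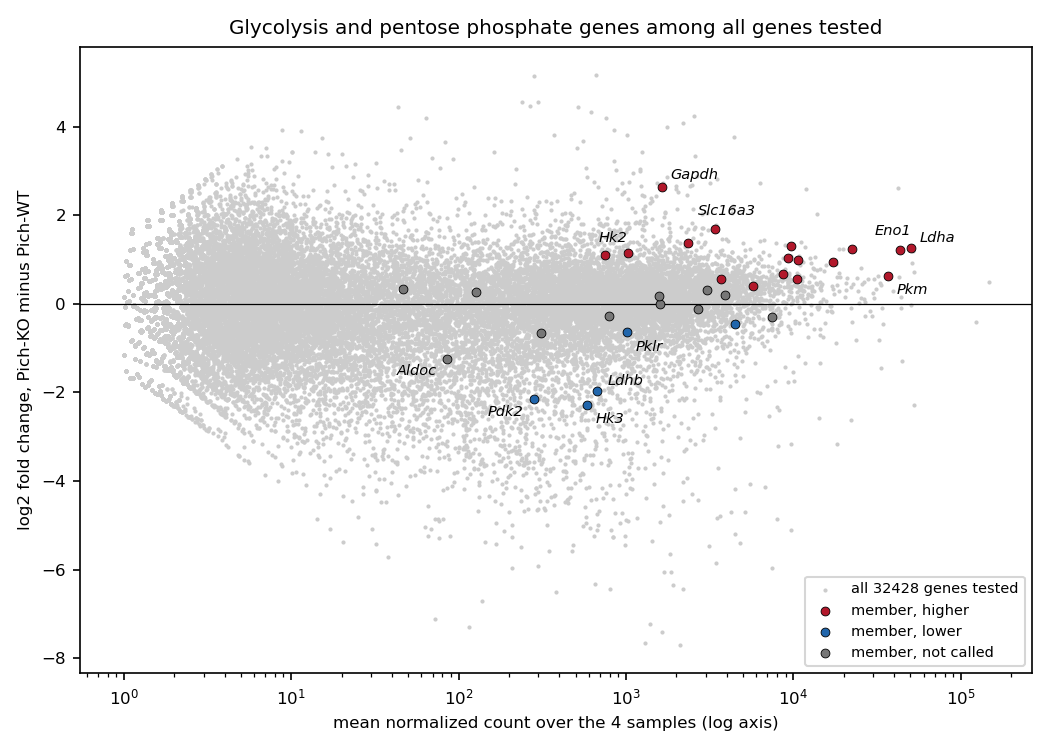
Log2 fold change, *Pich*-KO minus *Pich*-WT, against the mean normalized count (log axis) for the 32428 genes tested (grey), with the members coloured by their call. The members called higher lie mostly at high counts, with *Ldha* and *Eno1* at the far right, and *Hk3*, *Pdk2* and *Ldhb* lie below -1.9.

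Among 62 other genes of these pathways, 14 were called higher and 8 lower, with a median log2 fold change of 0.08. The shares were 7.58% and 9.60% of all genes tested, and 31.3% and 18.8% of genes with a mean of at least 1000. The 14 include *Eno1b*, the copy of *Eno1* given above. Of 25 further genes of sugar entry and glycolysis, 4 were higher and 6 lower. *Slc2a6*, a transporter of the GLUT family, had 214 and 215 normalized counts in *Pich*-KO against 26.6 and 42.0 in *Pich*-WT (log2 fold change 2.64, SE 0.30, adjusted p = 0.000795). Those called lower included *Bpgm*, *Slc2a4* and *Galm*. *Bpgm*, which makes 2,3-bisphosphoglycerate in red cells, had 405 and 340 against 1294 and 868 (log2 fold change -1.51, adjusted p = 0.00203). *Slc2a4*, the insulin-regulated transporter, had 15.3 and 25.0 against 57.8 and 113 (log2 fold change -1.99, adjusted p = 0.0174), and *Galm*, galactose mutarotase, had 73.1 and 63.7 against 250 and 208 (-1.73, adjusted p = 0.00197). *Bpgm* moved with the erythroid markers given above, and their part was not tested.

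Of 9 genes of fructose 2,6-bisphosphate and gluconeogenesis, 2 were called higher and the other 7 were not called. *Tigar*, a phosphatase that lowers fructose 2,6-bisphosphate and a p53 target, had 161 and 153 normalized counts in *Pich*-KO against 38.3 and 38.0 in *Pich*-WT (log2 fold change 2.02, SE 0.26, adjusted p = 0.00147). Of 18 further genes of lactate and pyruvate, 3 were higher and 1 lower. Of 10 further pentose phosphate genes, 5 were higher and 1 lower. All these counts stand beside 7.58% higher and 9.60% lower over all genes tested. *Rpia*, ribose-5-phosphate isomerase, had 212 and 581 against 50.02 and 148, a log2 fold change of 2.01 (SE 0.57, adjusted p = 0.0481). As in *Gapdh*, *Pich*-KO sample 2 was the highest of the 4 samples.

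Regulators of the pathway and HIF targets outside the members moved in both directions. Of 26 genes, 6 were higher and 5 lower, with a median log2 fold change of 0.06. The shares were 7.58% higher and 9.60% lower over all genes tested, and 31.3% and 18.8% among genes with a mean of at least 1000. *Hif1a* had 1989 and 1456 normalized counts in *Pich*-KO against 1357 and 1356 in *Pich*-WT (log2 fold change 0.33, SE 0.16, adjusted p = 0.224). *Ero1l*, an oxidase of the endoplasmic reticulum, had 2293 and 3298 against 942 and 842 and rose by 1.63 (SE 0.18, adjusted p = 0.000638). Both *Pich*-KO samples lay above *Pich*-WT. *Bnip3*, a mitophagy receptor, had 1382 and 1196 against 506 and 403 and rose by 1.51 (SE 0.16, adjusted p = 0.000643). Of the 4 HIF hydroxylases in the list, *Hif1an* and *Egln3* were called. *Hif1an* had 846 and 818 against 417 and 385 and rose by 1.05 (SE 0.14, adjusted p = 0.00193), and *Egln3* had 662 and 531 against 334 and 291 and rose by 0.92 (SE 0.18, adjusted p = 0.00987). *Egln1* had 118 and 147 against 89.1 and 71.0 (log2 fold change 0.72, SE 0.26, adjusted p = 0.114), and *Egln2* had 1326 and 1412 against 1436 and 1335, with overlapping groups (log2 fold change -0.02, SE 0.12, adjusted p = 0.949).

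Regulators and HIF targets that fell included *Epas1*, *Mxi1*, *Txnip* and *Bnip3l*. *Epas1*, which encodes HIF-2α, had 54.5 and 14.8 normalized counts in *Pich*-KO against 846 and 564 in *Pich*-WT, and fell by 4.55 on the log2 scale (SE 0.53, adjusted p = 0.000877). *Mxi1*, an antagonist of MYC, had 200 and 158 against 825 and 720 and fell by 2.11 (SE 0.19, adjusted p = 0.000265). *Txnip*, which restrains glucose uptake, had 2037 and 1793 against 4150 and 4523 and fell by 1.18 (SE 0.11, adjusted p = 0.000312). No sample of either group lay in the range of the other. *Bnip3l*, a mitophagy receptor of maturing red cells, had 1381 and 1265 against 2753 and 2471 and fell by 0.98 (SE 0.12, adjusted p = 0.000938). *Epas1* moved with the endothelial markers, 263 CPM in *Pich*-KO and 1772 CPM in *Pich*-WT on average, and *Bnip3l* with the erythroid markers, and their part was not tested.

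Among the members called higher, the samples of a group also differed mostly in a shared direction. Of these 17, *Pich*-KO sample 2 exceeded sample 1 in 13, and *Pich*-WT sample 1 exceeded sample 2 in 15. Over all 33 rows, *Pich*-KO sample 1 exceeded sample 2 in 14, and *Pich*-WT sample 1 exceeded sample 2 in 26. The order over all genes was not counted. For 16 of the 17 called higher the samples within each group differed by less than the group means did. The exception was *Gapdh*, where the *Pich*-KO samples differed by 3992 normalized counts and the group means by 2549. A call itself favours genes with a small spread within the groups, so this count describes the called members and is no separate support for them.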

How the data were processed

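RNA from sorted LSK cells was sequenced with a TruSeq kit that does not keep the strand, in 2 samples of each genotype. The authors deposited 1 table whose sample columns are a signal made from read counts per gene divided by 1 size factor per sample. The submitters' processing notes name Bowtie 0.12.2 and the builds mm8 and mm9, while the table's coordinates are those of GRCm38, so the notes may not describe this table, and the counting is not given in the sources used here. Its gene lengths equal the merged exons of GENCODE M21 in 32 of 33 rows (*Pgam1* is the exception). The authors also deposited their own log2 fold changes, p-values and group means, made by a test not given in the sources used here, and these were not used. Whole reads were recovered by dividing each column by its smallest step (100% of values whole in each sample, tolerance 0.001). On these reads edgeR called 3097 genes higher and 3436 lower.

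limma 3.58.1 (R 4.3.3, variance trend) was fitted to log2(value + 1) for genes with a mean of at least 1. Other settings were no variance trend, a replicate block, a pseudocount of 0.1, no filter, a minimum of 10 counts per sample, edgeR 4.0.16 with TMM or upper-quartile scaling and DESeq2 1.42.0 on recovered reads, and leaving out each sample in turn, by limma and, added after seeing the data, by edgeR. The fits were tested on simulated counts. The members and lists were chosen with earlier results of these data known. All members are named. Of other lists, the text names the 4 most raised and the 4 most lowered genes among those called with a mean of at least 50 and no overlap, and regulators or markers beside a result, and 1 gene that met this rule is not reported here. *Hif1a*, *Egln1* and *Egln2* were named after their values were seen.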

Additional observations from a re-analysis of the deposited data

How the results depend on the processing

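In 7 other fits with all samples (pseudocount 0.1, no filter, at least 10 counts, replicate block, and edgeR or DESeq2 on recovered reads) 15 to 18 members were higher and 4 to 8 lower. The same-numbered samples do not deviate together (correlation 0.0133 over 10544 genes), so the replicate block is a fit on a shared number only. It called 8 members lower in place of 5, adding *Aldoc*, *Pfkfb4* and *Taldo1*, added *Pdk1* among the higher, and called 8 regulators and HIF targets lower in place of 5. Without the filter 5 other pathway genes were lower in place of 8. Without the variance trend limma called 0 members, 0 other pathway genes, 0 regulators and 0 genes in all, with 16 members and 7377 genes at an unadjusted p under 0.05. Without each sample in turn limma called 0 genes in all (5757 to 8599 at an unadjusted p under 0.05), so these fits say nothing of single calls, and counts of members, other pathway genes and regulators were 0 to 0 in each direction. The median log2 fold change of the members was then 0.49 to 0.57. All 22 called members kept their sign. The sign changed in 5 uncalled rows: *Slc2a1* (-0.35 to 0.11; 0.02 without *Pich*-WT sample 1), *Slc2a3* (-0.51 to 0.53; -0.14 without *Pich*-WT sample 2), the second *Aldoa* row (-0.10 to 0.78; -0.05 without *Pich*-KO sample 2), *Eno3* (-0.0402 to 0.567) and *Pdk3* (-0.0557 to 0.399). By edgeR without each sample, 19 of the 22 were called each time, with *Hk1*, *Pklr* and *Pgd* the exceptions. The counts were then 16 to 20 members higher and 4 to 10 lower (10 without *Pich*-KO sample 1), 7 to 16 other pathway genes higher (7 without *Pich*-WT sample 1 and 9 without sample 2) and 5 to 10 lower (5 without *Pich*-WT sample 2), and 5 to 8 regulators higher and 5 to 9 lower (9 without *Pich*-KO sample 1). The cause of these differences was not tested. The low counts of *Aldoc*, *Eno3* and the second *Aldoa* row limit what could be detected for them.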
